A study of Bos taurus with 23 samples.

Results

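Endometrial gene expression was compared between cows with a short and cows with a long interval from the last calving to embryo transfer. By the label that gives this interval, 17 of the 23 Holstein cows of the series entered the comparison. The short group held the 9 cows with 160 days or fewer (128 to 156 days, median 144), of which 5 were pregnant and 4 non-pregnant after transfer. The long group held the 8 cows with 200 days or more (208 to 274 days, median 231.5), of which 4 were pregnant and 4 non-pregnant. The other 6 cows lay between (167 to 187 days, median 176, 3 pregnant and 3 non-pregnant) and were used only to look for a graded change. All cows were lactating, received no treatment that differed between the groups by the labels, and gave 1 endometrial biopsy, taken in the luteal phase of the cycle before the one in which an embryo was transferred. The interval is counted to the transfer, so each biopsy was about a cycle closer to calving than its label says. No cow was assigned to an interval. In the short group 6 cows were of parity 1 and 3 of parity 3, and in the long group 3 were of parity 1, 2 of parity 2 and 3 of parity 3. The cow's age is not in the labels.

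After calving the uterus of the cow shrinks back, sheds and rebuilds its lining, and clears the bacteria that entered at birth. In the dairy cow this runs alongside early lactation, when milk output exceeds intake and body reserves are drawn down, and cycles resume over the same weeks. A longer interval therefore places the biopsy later in lactation and leaves time for more cycles, although the number of cycles is not in the labels. The question of the comparison is whether the luteal endometrium differs with that time.

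No gene passed the test for a difference between long and short intervals. Of 15208 genes tested with edgeR's quasi-likelihood test, with pregnancy status in the model, 0 were called at an adjusted p of 0.05 (0% of the genes), and the smallest adjusted p was 0.699. At an unadjusted p under 0.05 there were 1058 genes (6.96%), of which 584 (3.84%) were higher and 474 (3.12%) lower in long-interval cows. That count was not steady, at 593 without long-interval cow 5, 1461 without long-interval cow 11, 677 with days as a linear term, 154 with the 23 cows split at the middle and 1635 with parity class in the model. DESeq2's Wald test called 1 gene of 22998 (0.00435%), with 1804 genes (7.84%) at an unadjusted p under 0.05. The voom method of limma with quality weights called 0 of 15208, with 1175 (7.73%) at an unadjusted p under 0.05. A miss of the threshold does not show that the groups were alike, so the intervals of the differences were read as well. The 95% interval of the log2 fold change lay within a 1.5-fold change in either direction for 7635 genes (50.2%) and within a 2-fold change for 11795 genes (77.6%). The median standard error was 0.20 on the log2 scale. The median log2 fold change over all genes was -0.0022, and 49.7% of genes were higher in long-interval cows.

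Cows of the same group were about as much alike as cows of different groups. The median Spearman correlation of the expression values across genes was 0.961 between 2 short-interval cows, 0.954 between 2 long-interval cows and 0.957 between a short-interval and a long-interval cow. Counts in genes ranged from 6920879 to 25777993 in the short and from 14147023 to 27243047 in the long group. None of 5 library measures passed a test for a difference between the groups (exact two-sided permutation tests, adjusted p = 0.726 for each). Reads outside genes made up a median of 49.2% in short-interval and 51.0% in long-interval libraries, with 75.5% and 76.8% in short-interval cows 20 and 21. Without cows 4, 20 and 21 these medians were 44.4% and 52.1% (exact two-sided permutation test, adjusted p = 0.4545). On the first principal component, cows 4, 6, 22 and 23 stood apart (50.5 to 98.5, against at most 10.4 in the other cows). Of these, cow 4 was in the long group and the other 3 were between the groups. Estimates without cows 4, 20 or 21 are given below for many genes, but not for all.

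The genes that can be named here are the 50 biomarker genes that the study selected to tell pregnant from non-pregnant animals, 32 listed as more expressed (UP) and 18 as less expressed (DOWN) in animals that became pregnant. The study chose them on samples that include Holstein cows, so the list is not independent of these libraries. All 50 were tested, and 0 were called. At an unadjusted p under 0.05 stood 4 of the 50 (8%), against 6.96% of all genes. The median log2 fold change of the 50 was 0.062, 32 were higher and 18 lower in long-interval cows, and the estimates ran from -0.53 to 1.35. Of the UP genes 26 of 32 were higher in long-interval cows, and of the DOWN genes 12 of 18 were lower, as estimates with no test. Over all genes tested, 49.7% were higher. Most of these estimates were small, with a median absolute log2 fold change of 0.11 for UP and 0.11 for DOWN genes, against 0.15 for all genes. Some signs changed without cows 20 and 21, a fit that was not read for all 50. The DOWN genes CTBP2, PIK3C3 and STAG2 then became higher. The UP genes SCG5 and CLECL1 became lower, and the UP gene PAXIP1 became higher. The 95% interval lay within a 1.5-fold change for 37 of the 50 genes and within a 2-fold change for 46. The 4 genes with the smallest p were SMARCAL1, BHLHE40, TRIB1 and VPS26B.

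**Figure D1:**
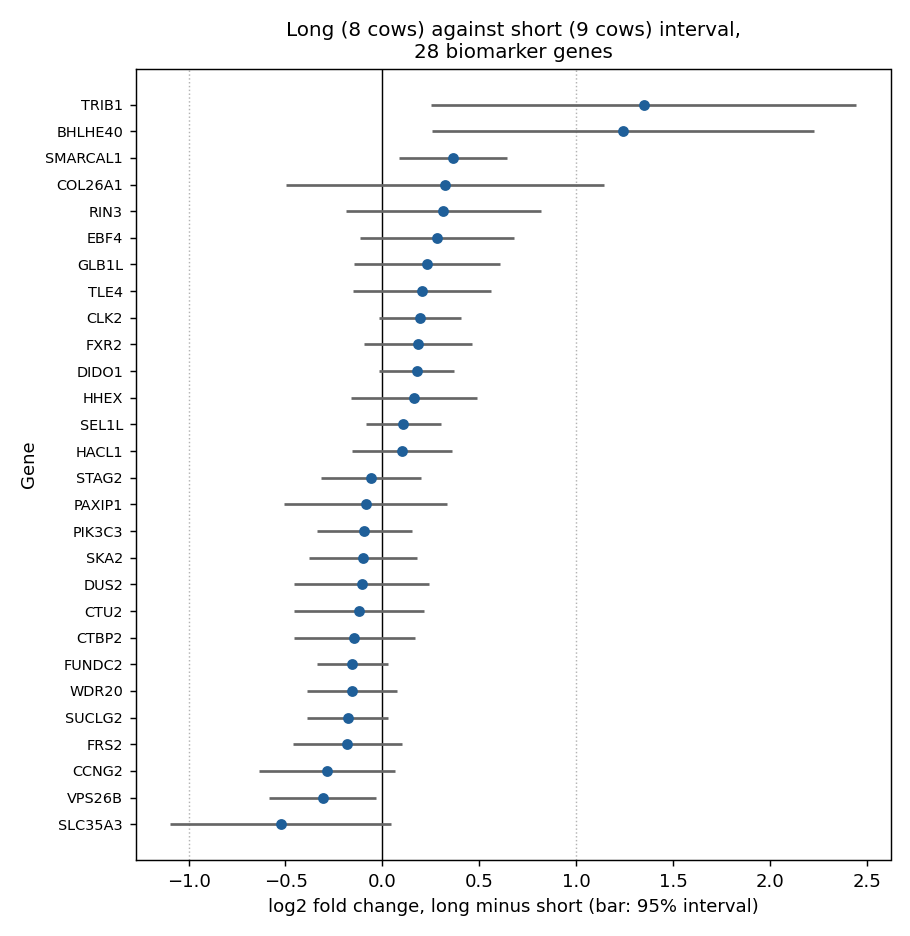
Log2 fold change, long minus short interval, with its 95% interval (edgeR's quasi-likelihood fit, 9 short and 8 long cows, pregnancy status in the model), for 28 biomarker genes; the dotted lines mark a 2-fold change in either direction. The bars of TRIB1, BHLHE40, SMARCAL1 and VPS26B do not reach 0 and those of the other 24 do, and no gene passed after adjustment (smallest adjusted p over all genes 0.699).

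SMARCAL1, a DNA-dependent ATPase that rewinds unwound DNA at stalled replication forks, was higher in long-interval cows. In short-interval cows it ranged from 28.5 to 48.9 CPM (read counts scaled to library size), with a median of 34.6, and in long-interval cows from 35.5 to 56.5, with a median of 44.3. The ranges overlapped, but all 8 long-interval cows lay above the short median and 3 of them above every short-interval cow. The fold was 1.29 (95% interval 1.06 to 1.56), a log2 difference of 0.36 with a standard error of 0.13 (edgeR adjusted p = 0.699). Leaving out any single cow kept the unadjusted p between 0.0026 and 0.0279, and without cows 4, 20 and 21 the difference was 0.42. It was 0.34 with parity class in the model.

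The SMARCAL1 values separated by interval among cows that did not become pregnant, and not among those that did. Among non-pregnant cows, the short-interval cows stood at 28.5, 29.4, 32.4 and 34.6 CPM and the long-interval cows at 39.1, 43.8, 55.0 and 56.5 CPM. The 2 sets did not overlap. SMARCAL1 was picked for its small p in the same cows, and the share of all genes without such overlap was not counted. The log2 difference among non-pregnant cows was 0.66, with a standard error of 0.17 (edgeR adjusted p = 0.704). Parity was uneven here. Short-interval cows 2, 13 and 16 and long-interval cow 4 were of parity 1, and the other non-pregnant cows of the 2 groups were of parity 2 or 3. Among pregnant cows the short-interval values were 29.1, 37.8, 40.6, 42.7 and 48.9 CPM and the long-interval values 35.5, 41.8, 44.8 and 50.8 CPM. Here the sets overlapped, with a difference of 0.13 and a standard error of 0.16. The lowest and highest short-interval values, 29.1 and 48.9 CPM, were those of cows 20 and 21, which had the most reads outside genes. The difference between the 2 statuses was itself tested as an interaction, and it was -0.53 with a standard error of 0.23 (edgeR adjusted p = 0.695), so it did not pass. With cows 4, 20 and 21 left out the interaction was -0.60.

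VPS26B, a subunit of the retromer that returns cargo from endosomes, was the lower of the 4. It ranged from 11.2 to 20.6 CPM (median 16.4) in short-interval and from 9.78 to 15.2 CPM (median 14.0) in long-interval cows. All 8 long-interval cows lay below the short median, and 2 of them below every short-interval cow. The log2 difference was -0.31, with a standard error of 0.13 (edgeR adjusted p = 0.699). It stayed negative without any single cow (-0.35 to -0.24), but the unadjusted p passed 0.05 in 7 of those 17 fits and reached 0.0759. With parity class in the model it was -0.27. It was -0.47 (standard error 0.17) in cows of parity 1 alone and -0.072 (standard error 0.23) in those of parity 2 or more. Among non-pregnant cows the values were 16.4, 16.9, 19.4 and 20.6 CPM for short and 10.6, 12.2, 14.2 and 15.2 CPM for long intervals. As for SMARCAL1, these sets did not overlap, and the share of all genes of which that holds was not counted. The cows are the same as for SMARCAL1, so parity was uneven here too. Among pregnant cows the sets overlapped, at 11.2 to 17.5 and 9.78 to 14.9 CPM. The interaction of interval with status was 0.34 (standard error 0.26, edgeR adjusted p = 0.71). With cows 4, 20 and 21 left out the log2 difference of VPS26B was -0.30 and the interaction 0.26.

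BHLHE40 and TRIB1 gave the largest differences of the 50, and both rested on few cows. BHLHE40, a transcriptional repressor that answers to hypoxia and to the circadian clock, ranged from 10.7 to 23.2 CPM in the 9 short-interval cows. In long-interval cows it was 162.9 CPM in cow 4 and 61.7 in cow 5, and from 11.0 to 23.0 in the other 6 cows. The medians were 15.6 CPM for short and 19.5 CPM for long intervals. The log2 difference was 1.24, with a standard error of 0.47 (edgeR adjusted p = 0.699). Without cow 4 it was 0.51, and its unadjusted p was then above 0.05.

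TRIB1, a pseudokinase that brings proteins to a ubiquitin ligase, showed the same cows. It ranged from 24.9 to 39.0 CPM in short-interval cows and stood at 357.5 in cow 4, 98.6 in cow 5 and 80.1 in cow 7. The other 5 long-interval cows lay between 20.5 and 26.9 CPM, so that the long median (26.2 CPM) was below the short median (28.9 CPM) while the long mean was above. The log2 difference was 1.35, with a standard error of 0.52 (edgeR adjusted p = 0.699), and 0.39 without cow 4, where its unadjusted p was above 0.05. Cow 4 also stood apart on the first principal component, and the part of that in these differences was not tested. The 3 cows of the interval between that stood apart carried high values of both genes as well. Cow 23 had 546.2 CPM of BHLHE40 and 570.0 of TRIB1, cow 6 had 200.8 and 163.9, and cow 22 had 30.4 and 57.5. The other 3 cows of that interval lay between 8.77 and 18.4 CPM for BHLHE40 and between 21.0 and 26.8 CPM for TRIB1.

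**Figure D2:**
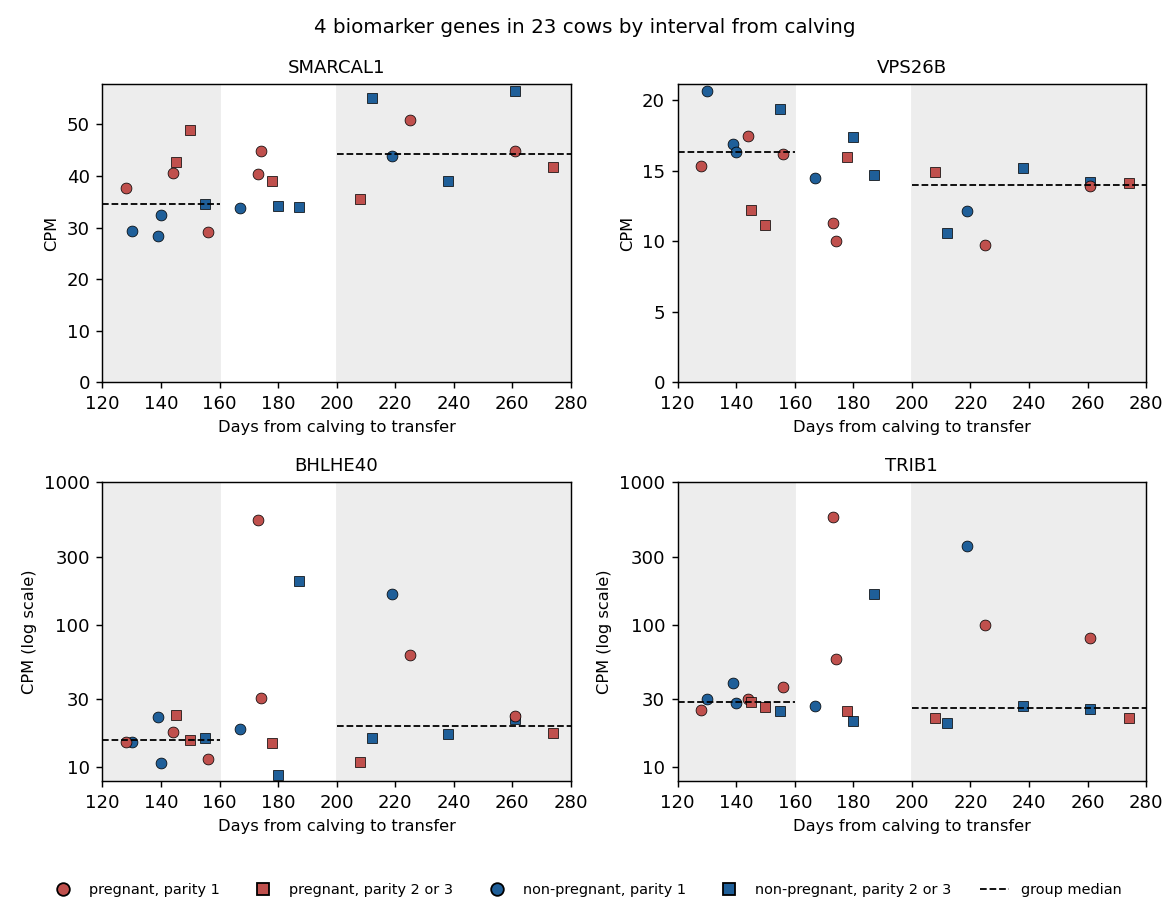
CPM (counts scaled to library size) of SMARCAL1, VPS26B, BHLHE40 and TRIB1 in each of 23 cows against days from calving to transfer, with short and long groups shaded, their medians dashed, and BHLHE40 and TRIB1 on a log axis. All 8 long-interval cows lie above the short median for SMARCAL1 and below it for VPS26B, while BHLHE40 and TRIB1 are high in single cows of the long and the unshaded middle interval.

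The other biomarker genes differed less, and they are given by role. Among 8 genes of chromatin and DNA repair, 5 were higher and 3 lower in long-interval cows, with a median log2 fold change of 0.027. DIDO1, a chromatin-binding protein that takes part in splicing and stem cell maintenance, had 0.18 (standard error 0.092), with 4 of 8 long-interval cows above every short-interval cow. PAXIP1, a BRCT-domain protein of DNA damage signalling, had -0.087 (standard error 0.20). It turned to 0.23 without cows 20 and 21, which had the most reads outside genes.

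Of 4 genes that handle RNA, 2 were higher and 2 lower. CLK2, a kinase of splicing factors, had 0.20 (standard error 0.10), with 7 of 8 long-interval cows above the short median. FXR2, an RNA-binding relative of the fragile X protein, had 0.18 (standard error 0.13), with all 8 above it. With cows 4, 20 and 21 left out CLK2 was 0.13 and FXR2 0.098. The tRNA-modifying genes CTU2 (-0.12, standard error 0.16) and DUS2 (-0.11, standard error 0.17) were the 2 lower ones. CTU2 was -0.048 without cow 8 and DUS2 -0.046 without cow 20.

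Of 4 genes of endosomes and Golgi, 2 were higher and 2 lower. RIN3, an activator of early endosome Rab proteins, had 0.31 (standard error 0.24), and 0.17 without cow 7. PIK3C3, the lipid kinase of autophagy and endosomes, had -0.094 (standard error 0.12) and turned to 0.026 without cows 20 and 21. In the endoplasmic reticulum, SEL1L, an adaptor that sends misfolded proteins to degradation, had 0.11 (standard error 0.091), and 0.064 without cows 4, 20 and 21.

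Among 3 genes of glycan handling, SLC35A3, which carries UDP-N-acetylglucosamine into the Golgi, had -0.53 (standard error 0.27, edgeR adjusted p = 0.705). Its values ran from 149.7 to 327.8 CPM in short-interval and from 69.1 to 274.6 CPM in long-interval cows. The 2 groups overlapped, although 5 of 8 long-interval cows lay below every short-interval cow. With parity class in the model the difference was -0.76, and without cows 4, 20 and 21 it was -0.22. GLB1L, a relative of lysosomal beta-galactosidase, had 0.23 (standard error 0.18), and 0.10 without cows 4, 20 and 21.

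Of 4 genes of mitochondria and fatty acids, 3 were lower. They include SUCLG2, a subunit of succinate-CoA ligase, with -0.18 (standard error 0.10), and FUNDC2, a protein of the outer mitochondrial membrane, with -0.16 (standard error 0.087). For FUNDC2, 7 of 8 long-interval cows lay below the short median. HACL1, an enzyme of peroxisomal fatty acid oxidation, had 0.10 (standard error 0.12), and 0.056 without cow 11.

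Of 4 genes of cell division, 3 were lower. CCNG2, a cyclin of non-dividing cells, had -0.29 (standard error 0.17), SKA2 of the kinetochore -0.10 (standard error 0.13) and the cohesin subunit STAG2 -0.061 (standard error 0.12). Without cow 4 SKA2 was -0.019, and without cows 4, 20 and 21 CCNG2 was -0.10. STAG2 turned to 0.082 without cows 20 and 21.

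Among 4 Wnt-related genes, counted with the homeobox gene HHEX, 3 were higher. The corepressor TLE4 had 0.20 (standard error 0.17) and HHEX 0.16 (standard error 0.15), while the corepressor CTBP2 had -0.14 (standard error 0.15) and turned to 0.078 without cows 20 and 21. The transcription factor EBF4 had 0.28 (standard error 0.19) and the collagen gene COL26A1 0.32 (standard error 0.39). COL26A1 was 0.11 without cow 14 and 0.50 without cow 4. WDR20, a cofactor of deubiquitinating enzymes, had -0.16 (standard error 0.11) and FRS2, an adaptor of fibroblast growth factor receptors, -0.18 (standard error 0.13), which was -0.099 without cow 21. With cows 4, 20 and 21 left out EBF4 was 0.16, WDR20 -0.072 and FRS2 -0.080. Adjusted p-values of the genes given by role ran from 0.705 to 0.947 by edgeR's quasi-likelihood test.

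Genes outside the 50 carry only Ensembl identifiers in the files, so those of smallest p are described by their values alone. They were picked for small p in these same cows, so a separation of the groups is no further support. The share of all genes separated as far was not counted. ENSBTAG00000008429 had the smallest p of those higher in long-interval cows. It ranged from 19.0 to 39.1 CPM (median 33.6) in short-interval and from 38.7 to 60.5 CPM (median 45.7) in long-interval cows. Of the 8 long-interval cows 7 lay above every short-interval cow. The log2 difference was 0.55, with a standard error of 0.12 (edgeR adjusted p = 0.699). It was 0.48 to 0.59 in the fits that left out a cow, and 0.68 among pregnant and 0.43 among non-pregnant cows. The 6 cows between had a median of 37.7 CPM, and 5 of them lay between the medians of the 2 groups.

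ENSBTAG00000016312 ranged from 6.41 to 10.5 CPM in short-interval and from 9.36 to 17.8 CPM in long-interval cows, with 7 of 8 above every short-interval cow. Its log2 difference was 0.61, with a standard error of 0.15 (edgeR adjusted p = 0.699). It was 0.55 among pregnant and 0.71 among non-pregnant cows. The 6 cows between had a median of 10.6 CPM, and 2 of them lay between the medians of the 2 groups.

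Lower in long-interval cows was ENSBTAG00000013358, at 107.1 to 291.0 CPM (median 242.8) in short-interval and 61.1 to 182.5 CPM (median 111.0) in long-interval cows. All 8 long-interval cows lay below the short median, and 4 below every short-interval cow. The log2 difference was -1.02, with a standard error of 0.23 (edgeR adjusted p = 0.699), at -0.78 among pregnant and -1.25 among non-pregnant cows. The cows between had a median of 258.7 CPM (range 112.8 to 368.5 CPM), which was above both group medians. Of these 6 cows, 3 lay between the medians of the 2 groups.

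ENSBTAG00000034140 had the smallest p and was the 1 gene that DESeq2's Wald test called (log2 fold change -4.28, adjusted p = 0.000558). It is a gene of low counts, at 0.10 to 14.3 CPM (median 1.94) in short-interval and 0 to 0.48 CPM (median 0.13) in long-interval cows. All 8 long-interval cows lay below the short median, but the short-interval cows spread over more than the difference. It passed the filter on low counts through the short-interval cows, and its log2 difference was -4.35 with a standard error of 0.86 (edgeR adjusted p = 0.699). The difference was -2.42 among pregnant and -6.23 among non-pregnant cows, with an interaction of 3.81 (edgeR adjusted p = 0.695). The 4 short-interval non-pregnant cows stood at 4.83 to 14.3 CPM and the 5 short-interval pregnant cows at 0.10 to 1.94 CPM, where cows 8 (0.13 CPM) and 18 (0.10 CPM) were at the level of the long-interval cows. The cows between, at 0 to 0.15 CPM, were at the level of the long-interval cows.

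**Figure D3:**
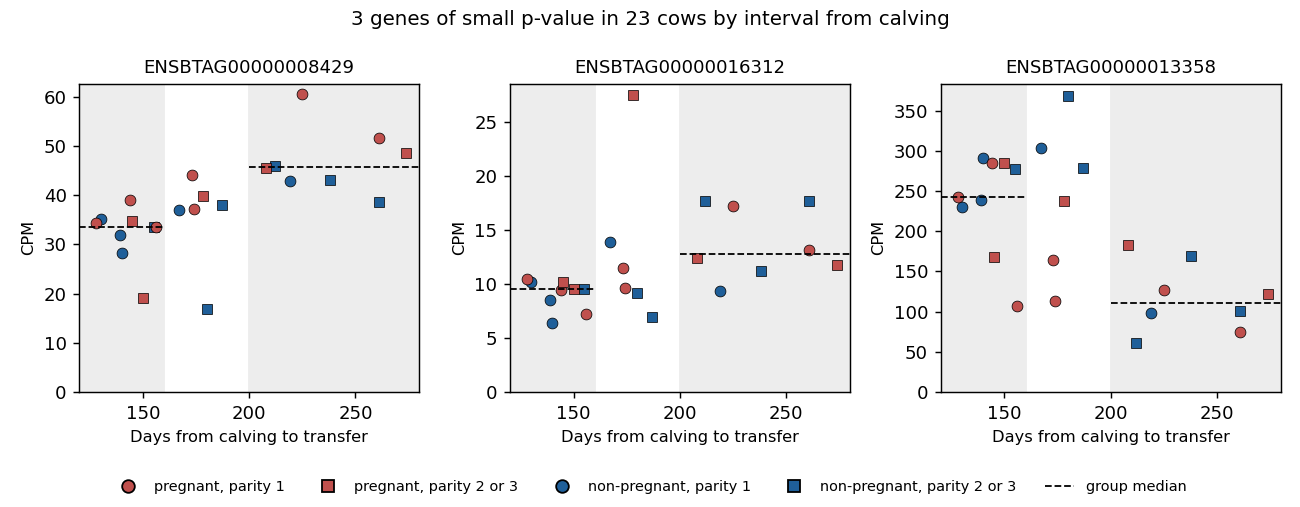
CPM (counts scaled to library size) of ENSBTAG00000008429, ENSBTAG00000016312 and ENSBTAG00000013358 in 23 cows against days from calving to transfer, with short and long groups shaded and their medians dashed. Of the 8 long-interval cows, 7 lie above every short-interval cow for each of the first 2 genes and 4 below every short-interval cow for the last. These genes were picked for small p in the same cows, and the share of all genes separated as far was not counted.

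Whether the difference depended on later pregnancy was tested as an interaction, and 0 of 15663 genes were called (0%, edgeR, smallest adjusted p 0.695), with 1038 (6.63%) at an unadjusted p under 0.05. For 433 of these (2.76%) the difference was more positive and for 605 (3.86%) more negative in pregnant cows. Within pregnant cows 0 genes were called and 1112 (7.1%) stood at an unadjusted p under 0.05, of which 333 (2.13%) were higher and 779 (4.97%) lower in long-interval cows. Within non-pregnant cows 0 were called and 1079 (6.89%) stood there, 643 (4.11%) higher and 436 (2.78%) lower, with a smallest adjusted p of 0.241. Leaving out a cow moved the unadjusted count to 659 to 2097 for the interaction (lowest without cow 21, highest without cow 8), 529 to 2302 within pregnant cows (the same cows, with cow 20 also moving it by over 1.5 times) and 594 to 1641 within non-pregnant cows (lowest without cow 12, highest without cow 3, with cow 4 also moving it that far). DESeq2 and voom were not run for these 3 comparisons. Of the 50 biomarker genes, 29 (58%) had the same sign in both statuses, against 48.9% of all genes.

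Among the 50, SMARCAL1 had the smallest p for the interaction, and SCG5 came next. SCG5 encodes a chaperone of a prohormone convertase. It stood at 8.37 to 24.9 CPM in short-interval and 23.8 to 38.0 CPM in long-interval pregnant cows. In non-pregnant cows it stood at 18.5 to 23.4 CPM for short and 6.32 to 25.0 CPM for long intervals, and the sets overlapped in both statuses. The log2 difference was 0.53 among pregnant (standard error 0.32) and -0.43 among non-pregnant cows (standard error 0.34). The interaction was 0.96, with a standard error of 0.47 (edgeR adjusted p = 0.695). The lowest of the non-pregnant long-interval values is cow 4 and the lowest of the pregnant short-interval values is cow 21. The interaction was 0.68 without cow 4, 0.76 without cow 21 and 0.54 without cows 4, 20 and 21.

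RNF19A, a ubiquitin ligase, had an interaction of -0.78 (standard error 0.41, edgeR adjusted p = 0.695). It stood at 343.2 CPM in cow 4 among the non-pregnant long-interval cows (the other 3 at 135.0 to 162.4) and 274.4 CPM in cow 21 among the pregnant short-interval cows (the other 4 at 117.1 to 152.3). The interaction was -0.37 without cow 4, -0.51 without cow 21 and -0.14 without cows 4, 20 and 21. Also positive were NEIL2, a DNA glycosylase, at 0.59, CHAF1A, a histone chaperone, at 0.55, and the lectin-like gene CLECL1 at 0.65. WDR20 at -0.35, PAXIP1 at -0.60 and STAG2 at -0.29 were negative. Without cow 21, PAXIP1 was -0.37 and STAG2 -0.12, without cow 7 CHAF1A was 0.35, and without cow 14 CLECL1 was 1.07. The adjusted p of these 6 genes ran from 0.695 to 0.737 (edgeR).

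**Figure D4:**
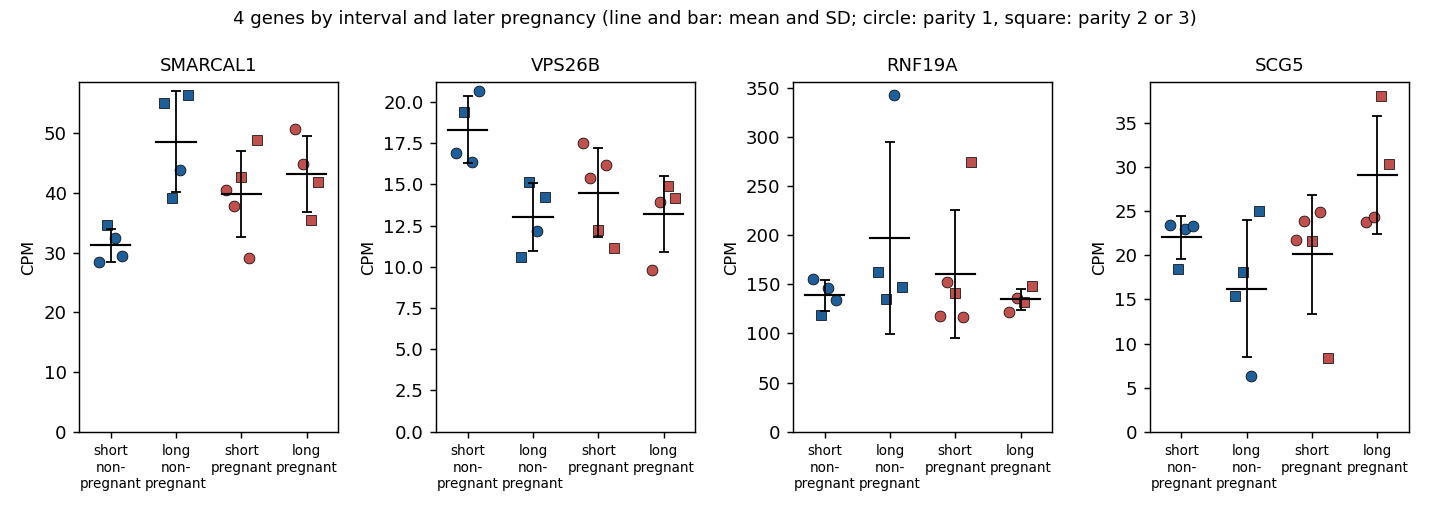
CPM (counts scaled to library size) of SMARCAL1, VPS26B, RNF19A and SCG5 in the 17 cows by interval and later pregnancy (4 short and 4 long non-pregnant, 5 short and 4 long pregnant cows), each point a cow, lines and bars the mean and SD. Short and long intervals do not overlap among non-pregnant cows for SMARCAL1 and VPS26B, and the share of all genes without such overlap was not counted. The highest RNF19A values are cow 4 (343.2) and cow 21 (274.4).

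A graded change was looked for over all 23 cows with days as a linear term, which shares the 17 cows with the comparison above. No gene was called (0 of 16022, 0%, edgeR), and 372 (2.32%) stood at an unadjusted p under 0.05, of which 123 (0.768%) were higher and 249 (1.55%) lower with longer intervals. Without cow 5 there were 245, and without cows 4, 6, 22 and 23 there were 608. The smallest adjusted p was 0.9998. SMARCAL1 had a slope of 0.36 on the log2 scale per 100 days (standard error 0.12) and was the 1 gene of the 50 (2%) with an unadjusted p under 0.05. Its median in the cows between was 36.7 CPM, which lies between those of the short and long groups, and 2 of the 6 cows lay between these medians. For VPS26B the slope was -0.22 (standard error 0.13), with a median of 14.6 CPM in the cows between. The next slopes were 0.36 for RIN3, 0.23 for TLE4 and 0.23 for GLB1L, and, on the lower side, -0.19 for WDR20, -0.58 for SLC35A3, -0.18 for SUCLG2 and -0.21 for CCNG2. None of these slopes passed. BHLHE40, with its highest value at 173 days, had a slope of 0.55 with a standard error of 1.38.

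Parity was not balanced over the interval, and the comparison gave another picture within first-parity cows. The 6 short and 3 long cows of parity 1 gave 220 called genes of 15673 (1.4%, edgeR), 203 higher and 17 lower in long-interval cows, with 3007 genes (19.2%) at an unadjusted p under 0.05. The 3 short and 5 long cows of parity 2 or more gave 0 of 15948 (0%), with 475 (2.98%) at an unadjusted p under 0.05. The difference between the parity classes was tested as an interaction in the 17 cows and called 0 of 16101 genes (0%), with a smallest adjusted p of 0.0622 and 2350 genes (14.6%) at an unadjusted p under 0.05. The contrast was therefore not shown to differ between the classes. The calls rested on single cows among 9. No gene was called without long-interval cow 4, long-interval cow 5 or short-interval cow 16. Between 7 and 22 genes were called without cow 2, 8, 13 or 17, and 380 without cow 7 and 599 without cow 20. With the same contrast taken from a fit over all 17 cows, 733 genes were called.

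Of the 50 biomarker genes, 3 were called among first-parity cows, where 1.4% of all genes tested were called. BHLHE40 and TRIB1 were 2 of the 3. None of the 50 was called when cow 2, 4, 5, 8, 13, 16 or 17 was left out. Without cow 7 or cow 20, 3 were called, against 2.43% and 3.87% of all genes tested. TRIB1 stood at 25.0 to 39.0 CPM in the 6 short-interval cows and at 80.1, 98.6 and 357.5 in the 3 long-interval cows. The log2 difference was 2.43, with a standard error of 0.35 (edgeR adjusted p = 0.0335). For BHLHE40, the short-interval cows had 10.7 to 22.4 CPM and the long-interval cows 23.0, 61.7 and 162.9. Its difference was 2.37, with a standard error of 0.42 (edgeR adjusted p = 0.0393). For neither gene did the short-interval and long-interval values overlap. Both genes are described because they were called in these same cows, so that separation is no further support. The share of all genes without such overlap among first-parity cows was not counted. In cows of parity 2 or more the differences were -0.20 for TRIB1 (95% interval -0.60 to 0.20) and -0.19 for BHLHE40 (-0.80 to 0.42). The interaction with parity class missed the threshold for both, at 2.80 for TRIB1 (edgeR adjusted p = 0.0622) and 2.71 for BHLHE40 (edgeR adjusted p = 0.0651). SMARCAL1 had 0.50 among first-parity cows (standard error 0.14) and 0.079 among the others (standard error 0.23), and SLC35A3 had -1.14 (standard error 0.26) and -0.33 (standard error 0.41). None of these 4 values passed (adjusted p of at least 0.0656).

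The 203 genes called higher in first-parity cows were then followed in the 14 cows that had no part in the call. For each cow, the median over these genes of log2 CPM, taken against the mean of the 6 short-interval first-parity cows, is given as a description. It was 0.95 to 1.53 in the 3 long-interval cows that made the call. In the 5 long-interval cows of parity 2 or more it was -0.063 to 0.19, and in the 3 short-interval cows of parity 2 or more -0.023 to 0.39. The long-interval cows of higher parity lay near the short-interval cows. High values were seen again in cows 6, 22 and 23 of the interval between, at 1.36, 1.38 and 1.64. Cows 9, 10 and 19 of that interval had 0.29, 0.20 and -0.13. Cows 6, 22 and 23 are those that stood apart with cow 4 on the first principal component, and cow 6 was of parity 2. With 3 long-interval first-parity cows, of which cow 4 stood apart, interval and that separation were not tested apart from each other. Cow 5, another of the 3, had 34.1% of its counts in its 10 largest genes, next to 17.5% in the long group. The part of that in the calls was not tested. In tissue counts, more cells of a type and more RNA per cell cannot be told apart.

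**Figure D5:**
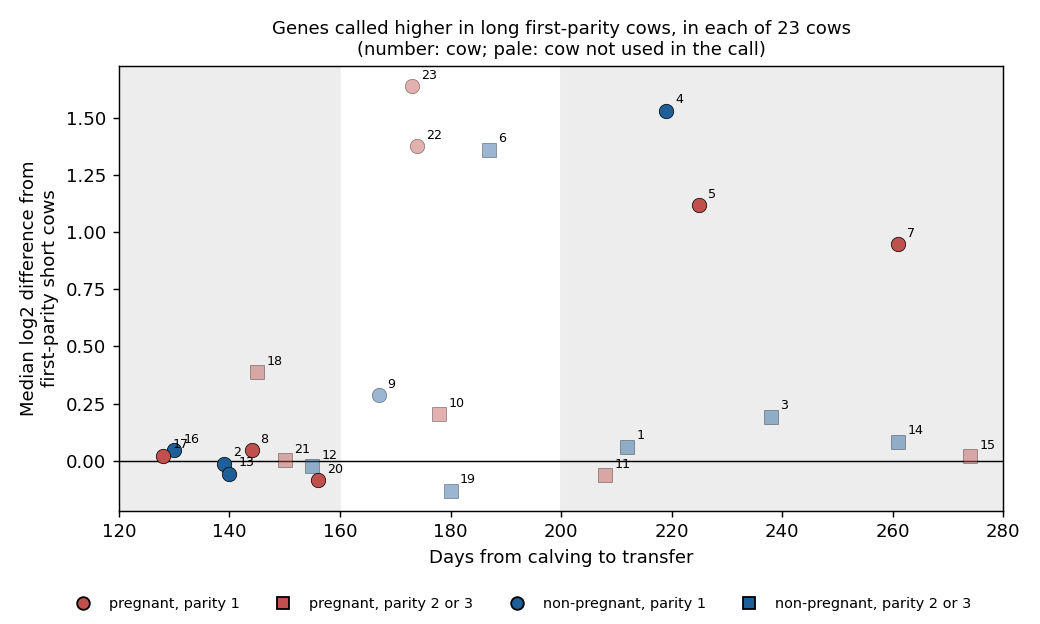
Median over 203 genes of the log2 CPM difference from the mean of the 6 short-interval first-parity cows, in each of 23 cows against days from calving to transfer; pale points are the 14 cows that had no part in choosing the genes. Cows 4, 5 and 7 of the long group (0.95 to 1.53) and cows 6, 22 and 23 between the groups (1.36 to 1.64) are high, and the 5 long-interval cows of parity 2 or more lie between -0.063 and 0.19.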

How the data were processed

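Reads were mapped to UMD3.1 with STAR and assigned to Ensembl genes with HTSeq by the authors, as their processing notes list. Tool versions, the annotation release and the strand option, being not given in the sources used here, stay unstated. The deposited values are raw counts, 1 library per cow. Rows for reads outside genes or ambiguous were left out of the tests.

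Counts of 24616 genes were analysed in R 4.3.3 with edgeR 4.0.16 (TMM, default filter on low counts, quasi-likelihood test of long minus short with pregnancy status, Benjamini-Hochberg adjusted p of 0.05). DESeq2 1.42.0 and voom of limma 3.58.1 were alternatives. Standard errors came from the fold change and its F statistic. CPM were scaled by TMM over all cows. Scripts were tested on simulated data.

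The groups, lists and tests were chosen with earlier results of these data known. Among the 50 genes with a symbol, which the study's list gives, the 15 of smallest p per direction are named, with 5 each for interaction and trend and 2 identifiers per direction. Values of 2 genes that this rule or the list names are not reported here. Lists of cell type markers and pathways (inflammation, matrix, IGF axis, steroid receptors, progesterone response, prostaglandins, interferon, antigen presentation, fatty acid oxidation, oxidative phosphorylation, proliferation, immediate early genes, circadian clock, Wnt and gland transport) were not analysed here, because the tables at hand pair no other identifiers with symbols. For the same reason no sequence is shown, and the tissue was not checked against markers. The analyses by parity class beyond first-parity cows alone, and the score over the genes called there (log2 CPM, prior count 2), were chosen after seeing the data.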

Additional observations from a re-analysis of the deposited data

Results flagged for a closer look

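In 126 sets of 6, 8 or 9 cows (a gene or library measure within an interval group), the highest or lowest cow was set against Dixon's 95% critical value. For normal and independent values, chance passes it in about 1 of 20 sets. CPM of related genes, picked in part by small p, are not such values, so that rate is no yardstick here. The critical value was passed 19 times, by the cows that follow.

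In the long group, cow 4 was far above the others for BHLHE40 (162.9 CPM, next 61.7), TRIB1 (357.5 CPM, next 98.6) and RNF19A (343.2 CPM, next 162.4). Cow 5 of the same group had 34.1% of its counts in its 10 largest genes, next to 17.5%, and 0.48 CPM of ENSBTAG00000034140, next to 0.17.

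In the short group, cow 21 was far above the others for CTBP2 (126.3 CPM, next 78.9), STAG2 (457.5 CPM, next 308.4) and RNF19A (274.4 CPM, next 155.7) and far below for SCG5 (8.37 CPM, next 18.5). Cow 20 was low for DIDO1 (34.8 CPM, next 42.8) and high for RIN3 (8.52 CPM, next 5.02). These 2 cows had the most reads outside genes, and the part of that in their values was not tested.

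Among the cows between, cow 23 was high for BHLHE40 (546.2 CPM, next 200.8) and TRIB1 (570.0 CPM, next 163.9), cow 22 for NEIL2 (22.8 CPM, next 10.4), and cow 10 for CLECL1 (7.24 CPM, next 3.01) and ENSBTAG00000016312 (27.5 CPM, next 13.9). Cow 19 was high for SLC35A3 (370.9 CPM, next 161.7) and low for ENSBTAG00000008429 (16.8 CPM, next 37.0), and cow 9 was the 1 cow of the 6 with counts of ENSBTAG00000034140 (0.15 CPM).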

How the results depend on the processing

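With edgeR's test the count of 0 genes between long and short intervals held with DESeq2 size factors, without a filter and with a stricter one, without the covariate, with parity class or the share of reads outside genes in the model, in the fit over 23 cows, with days as a linear term, with all cows split at the middle, and without any single cow or cows 4, 20 and 21. It was 1 with DESeq2's Wald test and 220 in first-parity cows alone. The counts of 0 for the interaction with pregnancy status, within each status and for the trend held under every alternative run. Among first-parity cows, the 220 genes became 0 to 599 when a cow was left out, 0 without cows 4 and 20, and 733 in the fit over 17 cows; the cause was not tested. Counts at an unadjusted p under 0.05 moved by over 1.5 times without a filter (2065 for the main comparison, 2666 for the interaction, 3331 within pregnant cows, 1533 for the trend) and, without cows 4, 20 and 21, to 587 for the interaction and 411 within pregnant cows. With parity class in the model the trend had 833. No paired analysis was possible because no replicate number is shared between the groups.

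Library measures without cows 4, 20 and 21 turned to -0.12 for log2 counts, 5.11 percentage points for reads outside genes (exact permutation p = 0.0909) and -0.0001954 points for ambiguous reads. Of 37 genes, 13 changed sign under some setting, and none of these values passed. Without cows 4, 20 and 21 this gave 0.053 for CTBP2, 0.064 for PIK3C3, 0.062 for STAG2, 0.24 for PAXIP1 and 0.0035 for NEIL2. Without cows 20 and 21 it gave 0.078 for CTBP2, 0.026 for PIK3C3, 0.082 for STAG2, 0.23 for PAXIP1, -0.039 for SCG5 and -0.029 for CLECL1. In first-parity cows alone it gave -0.11 for TLE4, -0.38 for COL26A1, -0.015 for HACL1, 0.0029 for PAXIP1, -0.54 for SCG5 and -0.0019 for CLECL1. With voom it gave 0.017 for CTBP2, 0.00031 for STAG2, 0.14 for PAXIP1 and -0.00073 for CLECL1. With all cows split at the middle it gave -0.028 for HACL1, 0.062 for SKA2 and -0.0047 for RNF19A. With reads outside genes in the model PAXIP1 was 0.052, without a filter NEIL2 was 0.0063, and without cow 4 RNF19A was -0.11. Leaving out single cows gave ranges of -0.19 to 0.0058 for CTBP2, -0.088 to 0.050 for STAG2, -0.15 to 0.056 for PAXIP1, -0.046 to 0.22 for SCG5, -0.10 to 0.066 for NEIL2, -0.064 to 0.13 for CHAF1A, -0.080 to 0.17 for CLECL1 and -0.11 to 0.28 for RNF19A.

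The groups of 8 and 9 cows, with 6920879 counts in the shallowest library, bounded the change to within 2-fold for 77.6% of genes and leave a larger one possible for the others.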
